A study of Homo sapiens with 12 samples.

Results

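Hypoxia response and glycolysis genes were followed in HCT116, an established human colorectal carcinoma line, after loss of 3 factors of microRNA silencing. The genes are a list of 47 symbols: the HIF transcription factor subunits and their oxygen sensors, classical HIF targets, and the enzymes and transporters of glucose use. The list was chosen with earlier results of these data known. Of the 47, 46 were found by symbol among the 12756 genes of each table, and the carbonic anhydrase gene CA9 was not in the tables. Polyadenylated RNA had been sequenced from 4 groups of 3 labelled replicates: AGO2_KO, ANKRD52_KO, ANKRD52;CSNK1A1_KO (called the double knockout here) and the parental line, all harvested 48 hours after seeding and with no other agent or oxygen treatment in the labels. AGO2 is an Argonaute protein that loads microRNAs. CSNK1A1 is a casein kinase that phosphorylates Argonaute, and ANKRD52 belongs to the PP6 phosphatase complex that reverses this phosphorylation. The labels do not say how the knockouts were made, whether each is 1 clone, or whether replicates were separate cultures, so p-values reflect only how far these libraries scatter, possibly for technical reasons, and a clone and its knockout cannot be told apart.

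Hypoxia-inducible factor (HIF) is a pair of an oxygen-labile alpha subunit, from HIF1A or EPAS1, and the stable partner ARNT. With oxygen present, EGLN prolyl hydroxylases mark the alpha subunit for capture by the VHL ubiquitin ligase, and HIF1AN hydroxylates its activation domain. HIF that escapes binds a short core motif, ACGTG or GCGTG, at genes of glucose uptake, glycolysis, angiogenesis, mitophagy and collagen modification. Colorectal carcinoma lines take up much glucose in ordinary culture, and several of these genes are abundant without low oxygen. HIF alpha is controlled mostly at the protein, which RNA levels do not show.

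The deposited data are the fold changes of each knockout over the parental line, and the values of single libraries are not used here. Each knockout is therefore given by a log2 fold change from the authors' deposited table, with an approximate standard error (SE) rebuilt from it, and by a group level in CPM (counts scaled to library size) implied by the mean level over all 12 libraries and the 3 fold changes. Implied levels carry no error of their own. A gene was called at the authors' adjusted p under 0.05 over all 12756 genes. The 3 comparisons share the parental libraries, so knockouts were set against each other only through the difference of their fold changes.

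In the AGO2 knockout 2 members rose and 7 fell of 46, that is 4.35% and 15.2%, while 3.38% of all genes were called higher and 2.72% lower. In the ANKRD52 knockout 5 members rose and 10 fell (10.9% and 21.7%), against 7.62% of all genes higher and 6.04% lower. In the double knockout 7 rose and 18 fell (15.2% and 39.1%), against 22.9% of all genes higher and 20.1% lower. The members' share of falls thus lay above that of all genes in each table, and their share of rises lay near it or, in the double knockout, below it. The members were also more abundant than most genes (median of the mean log2 CPM 6.55, against 5.08 over all genes), and among the 6578 genes whose mean log2 CPM reached 5 the shares called lower were 2.52%, 6.38% and 24.2% in the tables of the AGO2, ANKRD52 and double knockout. Of the 37 members above that level 3, 7 and 16 fell in the same order of tables.

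The median log2 fold change of the 46 members was -0.13 in the AGO2 knockout, -0.20 with ANKRD52 lost and -0.21 in the double knockout, computed from the authors' deposited tables. Over all genes it was 0.00, 0.00 and 0.01. Members below 0 numbered 31, 34 and 33. Among the 46, 31 (67.4%) were called in at least 1 knockout, as were 49.9% of all genes, and 4 in all 3, each in a single direction: HIF1A rose, and PFKL, PFKFB4 and ANKRD37 fell. Of all 12756 genes 106 (0.831%) were called higher and 85 (0.666%) lower in all 3 tables, which share their parental libraries. The authors' likelihood ratios were also read more strictly, by the F distribution on 1 and 8 degrees of freedom. Then 0 of 9 members remained called in the AGO2 knockout (13 at an unadjusted p under 0.05) and 0 of 15 in the ANKRD52 knockout (20 unadjusted). In the double knockout 20 of 25 remained. CITED4, PFKFB4, P4HA1, KDM3A and ANKRD37 did not (adjusted p by F of 0.077, 0.0657, 0.0761, 0.0669 and 0.0874). The calls in both single knockouts, and those of these members in the double knockout, thus rest on the authors' test.

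**Figure D1:**
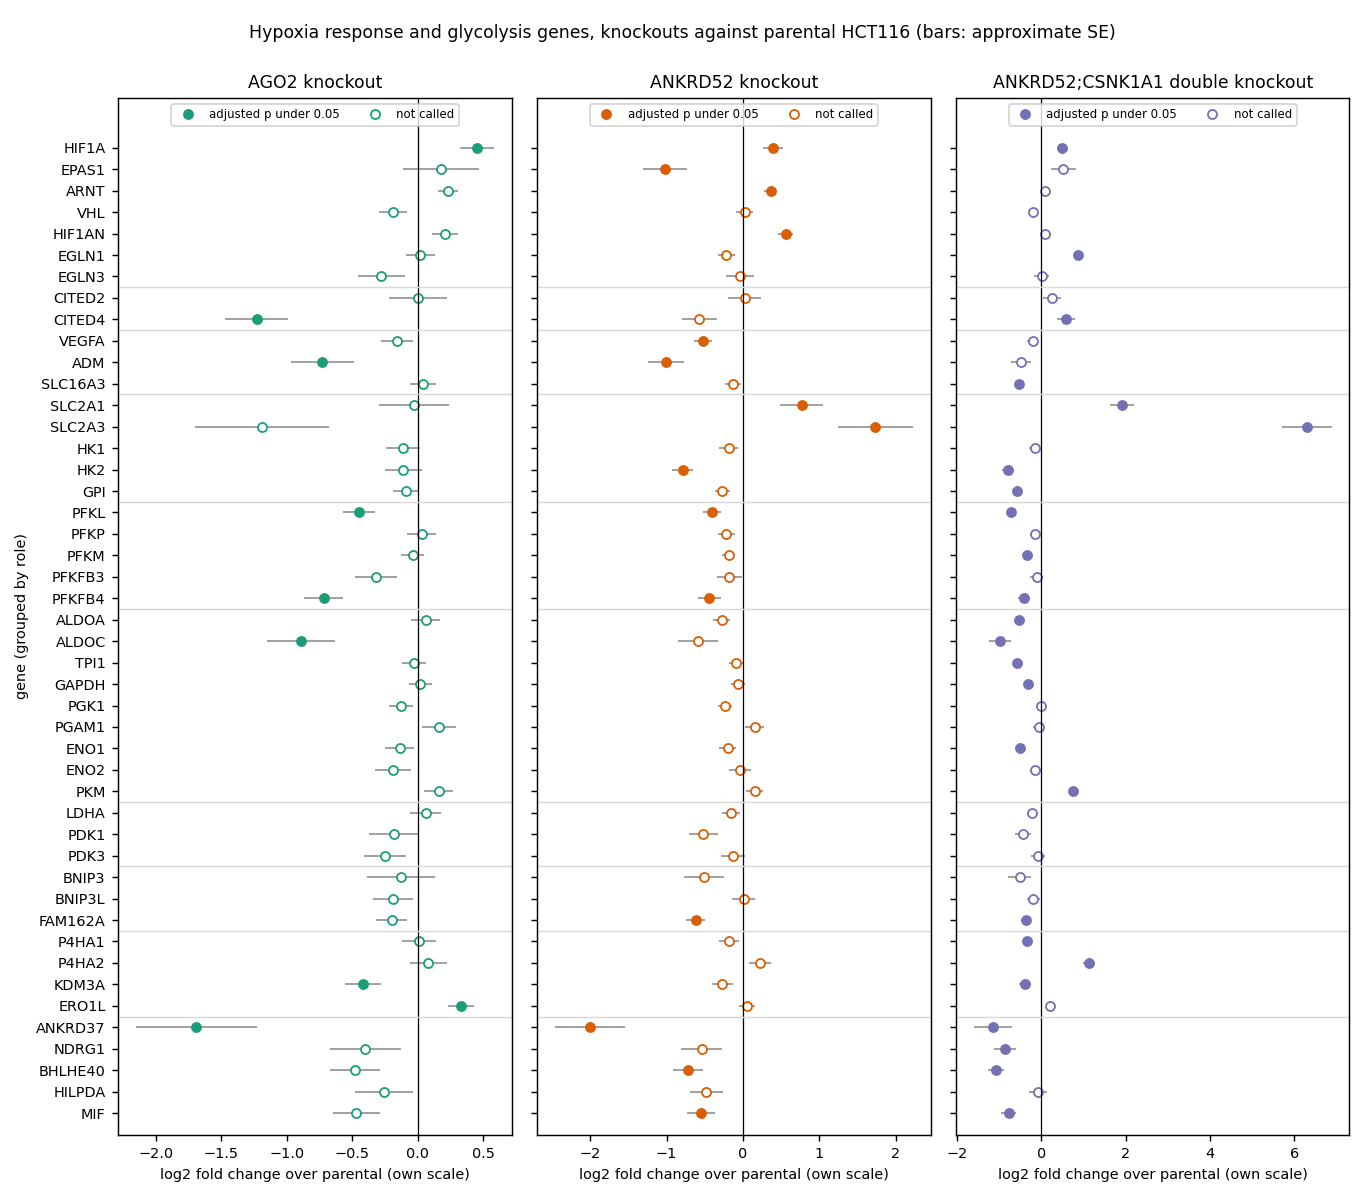
Log2 fold change over the parental line (x axis) for the 46 measured members (y axis, grouped by role with grey lines between roles) in the AGO2, ANKRD52 and double knockout, each panel with its own x scale. Points are values from the authors' deposited tables, bars are approximate SEs, and filled points were called at an adjusted p under 0.05; most points lie a little left of 0, SLC2A3 lies at 6.29 in the double knockout, and ANKRD37 lies left of 0 in all 3 panels.

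Among the HIF subunits, HIF1A rose in each knockout. Its implied level was 448 CPM in the AGO2 knockout, 429 in the ANKRD52 knockout, 459 in the double knockout and 327 CPM in the parental line. All 3 knockouts stood above the parental line and close to each other. In the authors' deposited tables its log2 fold changes were 0.45 (SE 0.13, adjusted p = 0.0218) in the AGO2 knockout, 0.39 (0.13, 0.0313) with ANKRD52 lost and 0.49 (0.13, 0.00123) in the double knockout. None of the 3 differences between knockouts was called for HIF1A.

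EPAS1, which encodes the HIF-2 alpha subunit, moved in the ANKRD52 knockout and not with HIF1A. Its implied level was 92.4 CPM in the AGO2 knockout, 40.2 in the ANKRD52 knockout, 117 in the double knockout and 81.7 CPM in the parental line. The ANKRD52 knockout was the low group, with a log2 fold change of -1.02 (SE 0.29, adjusted p = 0.00697) in the authors' deposited table. The double knockout exceeded the ANKRD52 knockout by 1.55 (95% interval 0.98 to 2.11, approximate adjusted p = 1.13e-06), and the ANKRD52 knockout lay below the AGO2 knockout (-1.20, adjusted p = 0.00149). The SE of EPAS1 was wider than that of 97.0% of the 500 genes nearest in expression. Per kilobase of exon, EPAS1 made 14.5% of the summed HIF1A and EPAS1 level in the AGO2 knockout, 7.16% in the ANKRD52 knockout, 17.4% in the double knockout and 17.1% in the parental line.

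ARNT, the shared beta subunit, stood at 94.5 CPM in the AGO2 knockout, 104 in the ANKRD52 knockout, 85.6 in the double knockout and 80.8 CPM in the parental line. It rose in the ANKRD52 knockout only by the calls (log2 fold change 0.36, SE 0.08, adjusted p = 0.000485 in the authors' deposited table), and the double knockout lay below that knockout (-0.28, adjusted p = 0.00375). The difference between the ANKRD52 and AGO2 knockouts, 0.14, was not called.

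The oxygen sensors moved apart from each other. EGLN1, the main HIF prolyl hydroxylase and itself a HIF target, stood at 85.4 CPM in the AGO2 knockout, 71.9 in the ANKRD52 knockout, 153 in the double knockout and 84.1 CPM in the parental line. The double knockout stood apart from the other groups, with a log2 fold change of 0.86 (SE 0.11, adjusted p = 1.70e-12) in the authors' deposited table, and exceeded the ANKRD52 knockout by 1.08 (95% interval 0.86 to 1.31, adjusted p = 1.93e-19). HIF1AN, the asparaginyl hydroxylase, was highest in the ANKRD52 knockout, at 156 CPM in the AGO2 knockout, 199 in the ANKRD52 knockout, 143 in the double knockout and 135 CPM in the parental line. It rose in the ANKRD52 knockout (0.56, SE 0.10, adjusted p = 2.10e-06 in the authors' deposited table) and was lower in the double than in the ANKRD52 knockout (-0.47, adjusted p = 1.31e-05) and higher in the ANKRD52 than in the AGO2 knockout (0.35, adjusted p = 0.00825).

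VHL and EGLN3 were not called in any comparison. VHL stood at 86.6 CPM in the AGO2 knockout, 100 in the ANKRD52 knockout, 85.7 in the double knockout and 98.9 CPM in the parental line. EGLN3, an inducible prolyl hydroxylase, stood at 6.07, 7.18 and 7.42 CPM in the same order of knockouts and 7.39 CPM in the parental line.

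**Figure D2:**
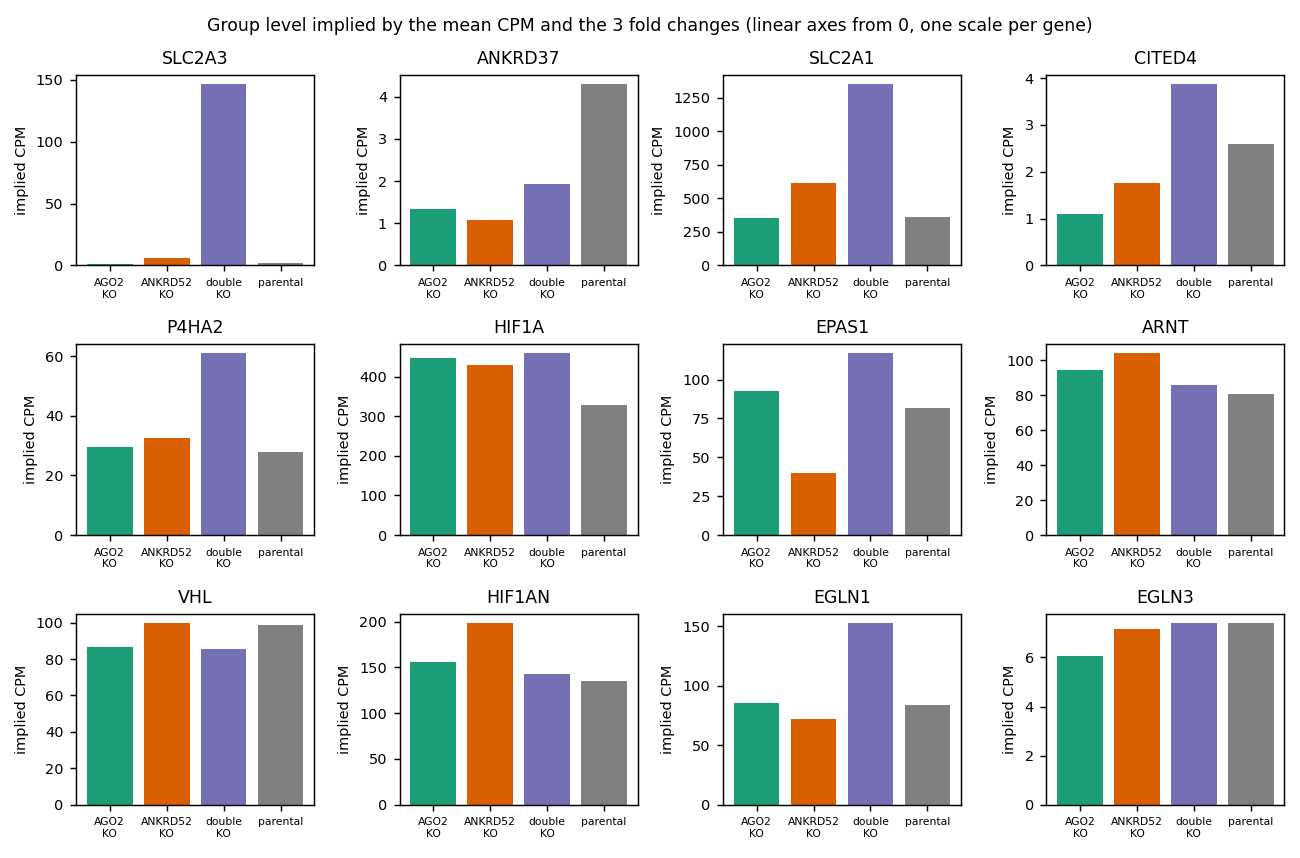
Implied group level in CPM (y axis, linear from 0 with a scale for each gene) of the 5 members with the largest called fold changes and of the 7 HIF subunits and oxygen sensors, in the AGO2, ANKRD52 and double knockout and in the parental line. Bars have no error since single libraries were not used; HIF1A is higher in all 3 knockouts, ANKRD37 lower in all 3, and SLC2A3, SLC2A1, EGLN1 and P4HA2 are highest in the double knockout.

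CITED4 and CITED2 encode proteins that bind the CBP and p300 coactivators, and CITED2 is a HIF target that competes with HIF for them. CITED4 was low in abundance, at an implied 1.10 CPM in the AGO2 knockout, 1.75 in the ANKRD52 knockout, 3.88 in the double knockout and 2.59 CPM in the parental line. The AGO2 knockout was the lowest group and the double knockout the highest. CITED4 fell by 1.23 (log2) in the AGO2 knockout (SE 0.24, adjusted p = 0.000122) and rose by 0.58 in the double knockout (SE 0.22, adjusted p = 0.0202) in the authors' deposited tables, while its -0.57 in the ANKRD52 knockout was not called (adjusted p = 0.0821). The double knockout exceeded the ANKRD52 knockout by 1.15 (adjusted p = 3.43e-06) and the AGO2 knockout by 1.82 (adjusted p = 1.23e-13). CITED2 had log2 fold changes of at most 0.25 in the authors' deposited tables and was not called.

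ANKRD37, an ankyrin repeat gene and direct HIF-1 target, had the largest falls among the members. Its implied level was 1.34 CPM in the AGO2 knockout, 1.08 in the ANKRD52 knockout, 1.94 in the double knockout and 4.31 CPM in the parental line. All 3 knockouts lay below the parental line. The log2 fold changes in the authors' deposited tables were -1.69 (SE 0.46, adjusted p = 0.0101) in the AGO2 knockout, -2.00 (0.46, 0.000606) with ANKRD52 lost and -1.15 (0.45, 0.0269) in the double knockout. The knockouts could not be told apart from each other: the double less the ANKRD52 knockout was 0.84 (95% interval -0.05 to 1.74), and the ANKRD52 less the AGO2 knockout was -0.31 (-1.21 to 0.60).

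Promoters of ANKRD37, SLC2A1 and CITED4 are shown because these members had the largest called changes among those with a RefSeq promoter entry. Each window holds the 250 bases before and 50 after the gene's start, 5′ to 3′ on the gene's strand, in GRCh38.p14, with capitals marking ACGTG or GCGTG on either strand. The ANKRD37 window lies at chr4:185396591-185396890 on the plus strand, that of SLC2A1 at chr1:42958819-42959118 on the minus strand and that of CITED4 at chr1:40862314-40862613 on the minus strand.
ANKRD37: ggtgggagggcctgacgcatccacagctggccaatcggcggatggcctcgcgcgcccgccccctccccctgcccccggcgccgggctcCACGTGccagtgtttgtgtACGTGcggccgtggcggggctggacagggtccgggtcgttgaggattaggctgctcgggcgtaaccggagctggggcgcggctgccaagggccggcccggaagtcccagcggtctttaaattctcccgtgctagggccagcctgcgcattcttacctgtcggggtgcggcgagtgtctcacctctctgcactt
SLC2A1: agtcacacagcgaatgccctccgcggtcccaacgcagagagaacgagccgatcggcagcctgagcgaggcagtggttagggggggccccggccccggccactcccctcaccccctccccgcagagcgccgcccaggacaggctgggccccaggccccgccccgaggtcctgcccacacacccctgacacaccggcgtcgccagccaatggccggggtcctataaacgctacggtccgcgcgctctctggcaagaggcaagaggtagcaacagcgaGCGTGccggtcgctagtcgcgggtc
CITED4: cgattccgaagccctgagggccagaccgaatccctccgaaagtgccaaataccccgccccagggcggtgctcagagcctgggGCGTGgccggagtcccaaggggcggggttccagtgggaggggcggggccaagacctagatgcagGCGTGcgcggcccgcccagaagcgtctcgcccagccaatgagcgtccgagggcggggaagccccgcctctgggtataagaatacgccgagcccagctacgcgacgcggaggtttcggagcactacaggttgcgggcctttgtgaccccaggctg
The ANKRD37 window held 3 matches to ACGTG, 2 of them overlapping on opposite strands, which begin at bases -162 and -161 from the start, and another at -143. The SLC2A1 window held 1 GCGTG, at base 26 after the start, and the CITED4 window held 2, at -168 and -104. A match to these letters is not evidence of binding.

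Such letters are common. ACGTG on either strand was found in 21.4% and GCGTG in 36.5% of all 35116 windows of the table, and ACGTG in at least 1 window of 32.6% of the 10064 measured genes with an entry. Of the members 40 had an entry, and 24 of these held ACGTG, 24 GCGTG and 35 either motif. GCGTG was in 59.2% of the measured genes and either motif in 70.9%, so the members' count for GCGTG lay near that of all genes. Their counts for ACGTG and for either motif lay above it. The members had 70 windows and the measured genes 14774, and a gene with more windows has more room for a match. By window ACGTG was in 40.0% of the members' and 25.3% of the measured genes', GCGTG in 42.9% and 48.7%, and either in 68.6% and 60.9%. In the double knockout 13 of the 24 members with ACGTG fell and 1 rose (median log2 fold change -0.36), and of the 16 members without it 4 fell and 5 rose (median 0.04), from the authors' deposited table. Over all measured genes there, 21.8% fell and 21.2% rose of those with ACGTG (median -0.01, n = 3280), and 20.2% fell and 23.7% rose of those without it (median 0.02, n = 6784). In the AGO2 and ANKRD52 knockouts the members' medians were -0.10 and -0.22 with ACGTG and -0.07 and -0.12 without it. Among the 24 members with ACGTG, 2 fell and 1 rose in the AGO2 knockout, and 5 fell and 0 rose with ANKRD52 lost. Among the 16 without it, 5 fell and 1 rose in the AGO2 knockout, and 4 fell and 4 rose with ANKRD52 lost. Only in the double knockout was the members' share of falls larger with ACGTG than without it.

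Other HIF targets that fell were the transcription repressor BHLHE40, the stress-response gene NDRG1 and the cytokine MIF. BHLHE40 had log2 fold changes of -0.48 (adjusted p = 0.110) in the AGO2 knockout, -0.72 (0.00348) with ANKRD52 lost and -1.08 (3.00e-07) in the double knockout in the authors' deposited tables. MIF had -0.47 (adjusted p = 0.10), -0.55 (0.0276) and -0.77 (0.000167) in the same tables and order. NDRG1 fell in the double knockout (-0.86, SE 0.27, adjusted p = 0.00495 in the authors' deposited table) and had -0.40 and -0.54 in the AGO2 and ANKRD52 knockouts, neither called. NDRG1 lies on chromosome 8, where its 40 nearest measured genes had a median of -0.39 in the AGO2 knockout, -0.06 with ANKRD52 lost and -0.03 in the double knockout; the part of this region in its values was not tested. Exons of MIF share 517 bases with the antisense gene MIF-AS1 in GENCODE 29, and its reads and those of MIF cannot be told apart if strand was not used in counting. They also share 357 bases with AP000350.4, a protein-coding gene on the same strand, which use of strand would not separate. HILPDA, a lipid droplet protein, was not called (-0.26, -0.48 and -0.08 in the authors' deposited tables).

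Of the secreted and transport genes, the vasodilator peptide gene ADM fell by 0.73 in the AGO2 knockout (SE 0.24, adjusted p = 0.0461) and by 1.01 in the ANKRD52 knockout (SE 0.24, adjusted p = 0.00104) (both log2) in the authors' deposited tables. Its -0.48 in the double knockout was not called (adjusted p = 0.0952). VEGFA, the angiogenic growth factor, fell by 0.52 in the ANKRD52 knockout (SE 0.12, adjusted p = 0.000602 in the authors' deposited table). It was lower there than in the AGO2 knockout (-0.37, adjusted p = 0.0333) and higher in the double than in the ANKRD52 knockout (0.31, adjusted p = 0.0304). The lactate exporter SLC16A3 fell by 0.53 in the double knockout (SE 0.10, adjusted p = 3.25e-06 in the authors' deposited table), and the double lay below the ANKRD52 knockout by 0.41 and below the AGO2 knockout by 0.57 (adjusted p = 0.000655 and 4.63e-07).

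Glucose transporters had the largest called rises of the members in the ANKRD52 and double knockouts, and neither rose in the AGO2 knockout. SLC2A3 (GLUT3) stood at an implied 0.822 CPM in the AGO2 knockout, 6.23 in the ANKRD52 knockout, 147 in the double knockout and 1.87 CPM in the parental line. The double knockout stood far above the other groups, and the AGO2 knockout and the parental line were low. The log2 fold change in the authors' deposited tables was 6.29 (SE 0.59, adjusted p = 1.43e-24) in the double knockout, 1.73 (SE 0.49, adjusted p = 0.00709) in the ANKRD52 knockout and -1.19 (SE 0.51, adjusted p = 0.138) in the AGO2 knockout. The double exceeded the ANKRD52 knockout by 4.56 (95% interval 3.49 to 5.62, adjusted p = 2.33e-15), and the ANKRD52 exceeded the AGO2 knockout by 2.92 (1.94 to 3.90, adjusted p = 1.29e-06). The SE of SLC2A3 was wider than that of 99.2% of the 500 genes nearest in expression.

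SLC2A1 (GLUT1), the housekeeping glucose transporter, stood at 353 CPM in the AGO2 knockout, 616 in the ANKRD52 knockout, 1354 in the double knockout and 361 CPM in the parental line. It rose 1.71-fold in the ANKRD52 knockout (log2 fold change 0.77, SE 0.28, adjusted p = 0.0398) and 3.75-fold in the double knockout (1.91, SE 0.28, adjusted p = 3.11e-10) in the authors' deposited tables. The AGO2 knockout and the parental line were close in level, with a log2 fold change of -0.03 (SE 0.27) in the authors' deposited table. Each step between the knockouts was called: the double exceeded the ANKRD52 knockout by 1.14 (adjusted p = 0.000337) and the ANKRD52 exceeded the AGO2 knockout by 0.80 (adjusted p = 0.0396). Per kilobase of exon, SLC2A3 made 0.237% of the summed level of both transporters in the AGO2 knockout, 1.02% in the ANKRD52 knockout, 9.93% in the double knockout and 0.526% in the parental line, so SLC2A1 made up most of it in every group.

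Hexokinases trap the glucose that enters. HK2, the inducible form, fell by 0.79 in the ANKRD52 knockout (SE 0.14, adjusted p = 2.89e-06) and by 0.80 in the double knockout (SE 0.14, adjusted p = 1.82e-07), and had -0.11 (adjusted p = 0.695) in the AGO2 knockout, in the authors' deposited tables. Both knockouts that lack ANKRD52 lay 0.68 below the AGO2 knockout (adjusted p = 0.000127 for the ANKRD52 and 8.52e-06 for the double knockout). The double less the ANKRD52 knockout was not called for HK2. HK1, the constitutive form, was not called, so by exon length HK2 made 39.1% of the summed hexokinase level in the AGO2 knockout, 29.7% in the ANKRD52 knockout, 29.2% in the double knockout and 39.1% in the parental line. The isomerase GPI fell in the double knockout (-0.57, adjusted p = 4.23e-07) and had -0.27 (adjusted p = 0.0569) in the ANKRD52 knockout in the authors' deposited tables.

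**Figure D3:**
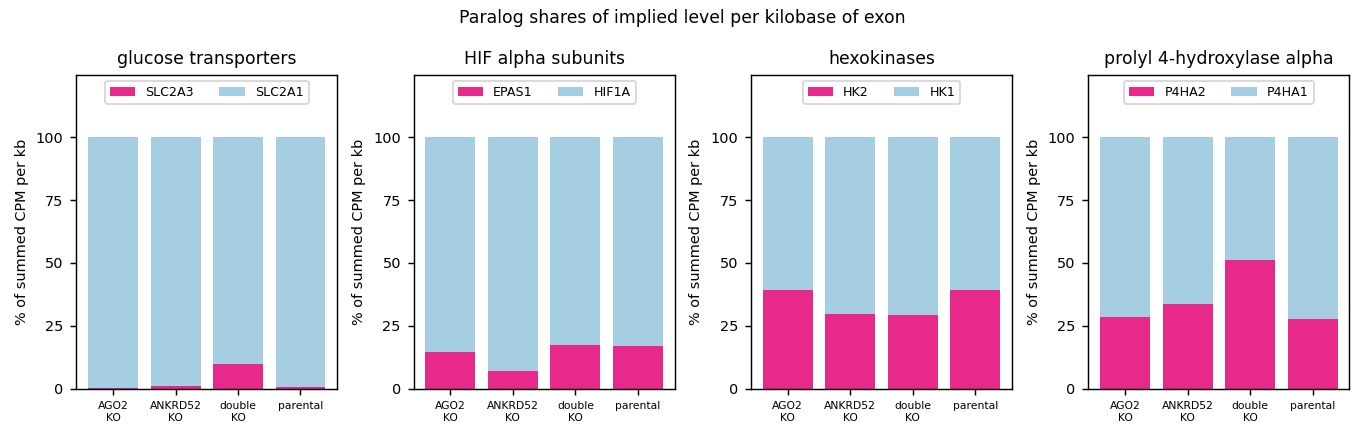
Share of each paralog (y axis, percent of the summed implied CPM per kilobase of exon) for glucose transporters, HIF alpha subunits, hexokinases and the alpha subunits of prolyl 4-hydroxylase, in the AGO2, ANKRD52 and double knockout and in the parental line. SLC2A3 reaches 9.93% and P4HA2 51.2% in the double knockout, and EPAS1 is at 7.16% in the ANKRD52 knockout.

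At the phosphofructokinase step, the liver-type subunit PFKL and the bifunctional enzyme PFKFB4 fell in all 3 knockouts by the authors' edgeR test. PFKL had log2 fold changes of -0.45 (SE 0.12, adjusted p = 0.0104) in the AGO2 knockout, -0.41 (0.12, 0.00984) with ANKRD52 lost and -0.73 (0.12, 3.17e-08) in the double knockout in the authors' deposited tables. PFKFB4, which sets the level of the activator fructose 2,6-bisphosphate, had -0.72 (SE 0.15, adjusted p = 0.000204), -0.44 (0.15, 0.0254) and -0.41 (0.15, 0.0139) in the same tables and order. The muscle-type PFKM fell in the double knockout only by the calls (-0.35, adjusted p = 0.000921 in the authors' deposited table). The platelet-type PFKP, which made 50.8% of the summed phosphofructokinase 1 level per kilobase in the parental line, and PFKFB3 were not called.

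Of 9 enzymes of the steps from aldolase to pyruvate kinase 5 fell and 1 rose in the double knockout. Of all genes 20.1% fell and 22.9% rose there. TPI1 (-0.58, adjusted p = 1.17e-08), ALDOA (-0.54, 1.64e-05), ENO1 (-0.51, 3.07e-05) and GAPDH (-0.31, 0.00243) fell in the authors' deposited table, and so did the minor aldolase ALDOC (-0.98, 0.000951). The size was 1.24-fold for GAPDH and 1.49-fold for TPI1. PKM, the pyruvate kinase at the end of the pathway, rose 1.69-fold (0.76, SE 0.11, adjusted p = 5.61e-11 in the authors' deposited table). The other 3 of the 9, PGK1, PGAM1 and ENO2, were not called in that table.

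In the single knockouts, where 6.1% (AGO2) and 13.7% (ANKRD52) of all genes were called in either direction, ALDOC fell in the AGO2 knockout (-0.89, SE 0.26, adjusted p = 0.0220 in the authors' deposited table) and 0 of 9 passed in the ANKRD52 knockout, by the authors' edgeR test. Against the ANKRD52 knockout the double knockout was lower for TPI1 (-0.49, adjusted p = 2.08e-06), ENO1 (-0.31, 0.0195) and GAPDH (-0.23, 0.0288) and higher for PKM (0.61, 2.22e-07) and PGK1 (0.23, 0.0363). GENCODE 29 names 62 pseudogenes after GAPDH, 39 after BNIP3 and 13 after PGAM1, and reads that such copies share make the levels of these genes less certain. Exons of ALDOA share 1636 bases with AC093512.2 there, and those of GPI 349 with AC092073.1. Both are protein-coding genes on the same strand, and their part in these values was not tested.

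At the branch from pyruvate, LDHA, which makes lactate, and the pyruvate dehydrogenase kinases PDK1 and PDK3 were not called in any table. PDK1 had -0.18 (adjusted p = 0.627) in the AGO2 knockout, -0.52 (0.0523) with ANKRD52 lost and -0.44 (0.0557) in the double knockout in the authors' deposited tables. The double less the AGO2 knockout was called for LDHA (-0.29, adjusted p = 0.0327). Of the mitochondrial genes, FAM162A, a proapoptotic HIF-1 target, fell by 0.62 in the ANKRD52 knockout (adjusted p = 1.56e-05) and by 0.37 in the double knockout (adjusted p = 0.00485) in the authors' deposited tables. The mitophagy receptors BNIP3 and BNIP3L were not called, with -0.51 (adjusted p = 0.201) for BNIP3 in the ANKRD52 knockout in the authors' deposited table.

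Collagen and chromatin modifiers did not move as a block. P4HA2, an alpha subunit of collagen prolyl 4-hydroxylase, stood at 29.6 CPM in the AGO2 knockout, 32.6 in the ANKRD52 knockout, 61.1 in the double knockout and 28.0 CPM in the parental line. It rose in the double knockout (log2 fold change 1.12, SE 0.14, adjusted p = 1.35e-13), where its paralog P4HA1 fell (-0.34, SE 0.13, adjusted p = 0.0197), in the authors' deposited table. P4HA2 made 28.6% of the summed level of both subunits per kilobase in the AGO2 knockout, 33.5% in the ANKRD52 knockout, 51.2% in the double knockout and 27.6% in the parental line. Exons of P4HA2 share 548 bases with the antisense gene P4HA2-AS1, so its value depends on whether strand was used in counting. The histone demethylase KDM3A fell in the AGO2 knockout (-0.42, adjusted p = 0.0412) and the double knockout (-0.38, adjusted p = 0.0145) in the authors' deposited tables. ERO1L, an oxidase of disulfide formation named ERO1A in RefSeq, rose in the AGO2 knockout (0.33, SE 0.10, adjusted p = 0.0227 in the authors' deposited table). Its exons share 581 bases with the antisense gene AL133453.1, so the value of ERO1L also depends on whether strand was used in counting.

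The 15 members that were not called against the parental line were VHL, EGLN3, CITED2, HK1, PFKP, PFKFB3, PGK1, PGAM1, ENO2, LDHA, PDK1, PDK3, BNIP3, BNIP3L and HILPDA. Their log2 fold changes ran between -0.32 and 0.16 in the AGO2 knockout, -0.52 and 0.15 in the ANKRD52 knockout and -0.51 and 0.25 in the double knockout, from the authors' deposited tables. A member that misses the threshold is not shown to be unchanged.

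The double knockout was set against the ANKRD52 knockout directly, since both lack ANKRD52 and the double also lacks CSNK1A1. By the approximate test over 11877 genes, 9 of 46 members were higher in the double knockout (18.1% of all genes were) and 8 lower (16.3% of all genes were), so the members' shares, 19.6% and 17.4%, lay near those of all genes. With the squared SEs of both comparisons summed in place of their mean, which takes the parental libraries as independent, the 8 lower members became 3. Higher in the double knockout were EPAS1, EGLN1, CITED4, VEGFA, SLC2A1, SLC2A3, PGK1, PKM and P4HA2, and lower were ARNT, HIF1AN, SLC16A3, GPI, PFKL, TPI1, GAPDH and ENO1.

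**Figure D4:**
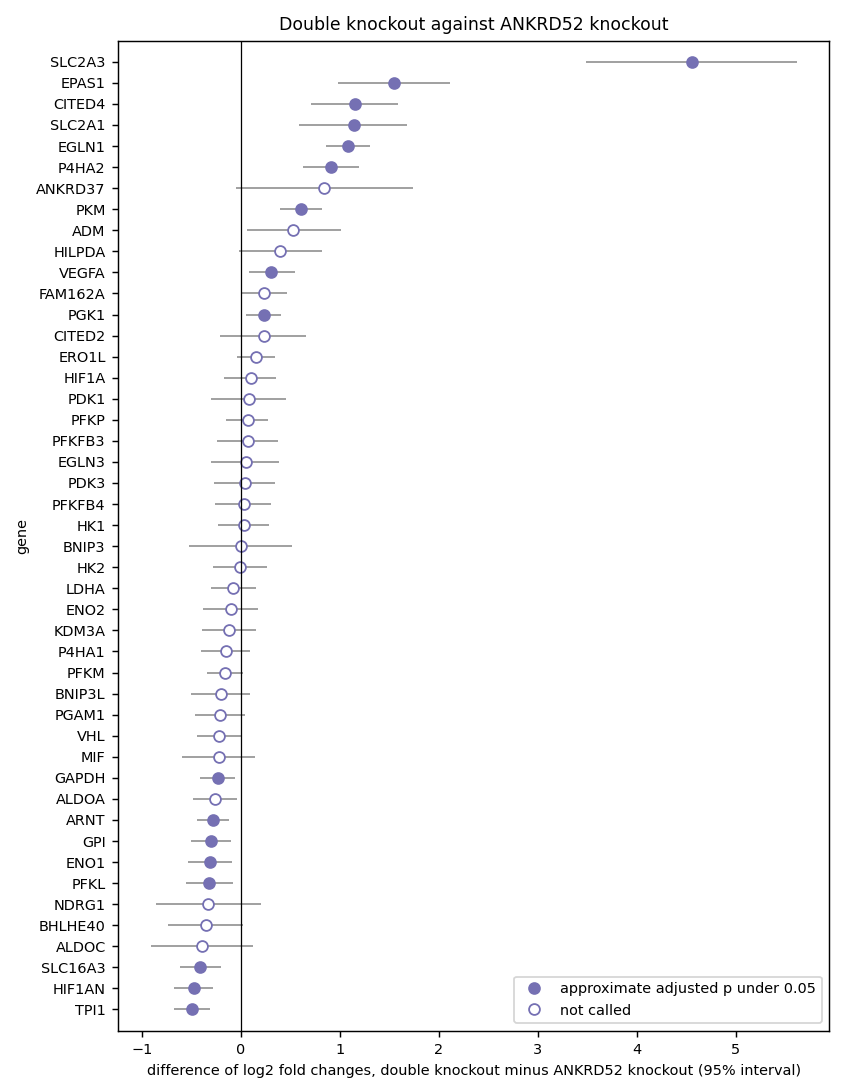
Difference of log2 fold changes, double knockout minus ANKRD52 knockout (x axis, with 95% intervals from approximate SEs), for the 46 members ordered by value (y axis); filled points have an approximate adjusted p under 0.05. SLC2A3 lies at 4.56 and EPAS1 at 1.55 at the upper end, and TPI1 at -0.49 and HIF1AN at -0.47 at the lower end.

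The ANKRD52 and AGO2 knockouts differed at 9 members: HIF1AN, SLC2A1 and SLC2A3 were higher in the ANKRD52 knockout (6.52% of members, 5.52% of all genes), and EPAS1, VEGFA, HK2, ALDOA, FAM162A and ERO1L lower (13.0% of members, 3.91% of all genes). Between the double and the AGO2 knockout, 6 members were higher in the double (13.0%, against 21.6% of all genes) and 12 lower (26.1%, against 21.0% of all genes). The 6 were EGLN1, CITED4, SLC2A1, SLC2A3, PKM and P4HA2, and the lower ones were SLC16A3, HK2, GPI, PFKL, PFKM, ALDOA, TPI1, GAPDH, ENO1, LDHA, P4HA1 and BHLHE40. With summed squared SEs the calls between the ANKRD52 and AGO2 knockouts became 1 higher (SLC2A3) and 0 lower, and the 12 lower members of the double against the AGO2 knockout became 6.

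Other genes of the pathway were taken from lists drawn up by function, with earlier results of these data known, so the lists are not independent of the data. Their counts stand against the shares of all genes given above (3.38% higher and 2.72% lower in the AGO2 knockout, 7.62% and 6.04% with ANKRD52 lost, 22.9% and 20.1% in the double knockout) and against medians of 0.00, 0.00 and 0.01. Of 14 measured HIF regulators 1 was called lower in the AGO2 knockout, 2 higher in the ANKRD52 knockout, and 4 higher and 6 lower in the double knockout (28.6% and 42.9%), with medians of -0.02, 0.04 and -0.12. The beta subunit paralog ARNT2 had log2 fold changes of -0.48 (adjusted p = 0.0439) in the AGO2 knockout, 0.70 (0.000306) with ANKRD52 lost and 1.29 (2.46e-15) in the double knockout in the authors' deposited tables. In the double knockout the adaptor LIMD1 rose (0.62, adjusted p = 0.000414) and HSP90AB1 (-0.33) and the transmembrane prolyl hydroxylase P4HTM (-0.42) fell in the authors' deposited table. The coactivator EP300 rose in the ANKRD52 knockout in the authors' deposited table (0.27, adjusted p = 0.0460).

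Of 39 further measured HIF targets 0 rose and 4 fell in the AGO2 knockout, 3 rose and 5 fell in the ANKRD52 knockout, and 12 rose and 7 fell in the double knockout (30.8% and 17.9%), by the authors' edgeR test (medians -0.09, -0.16 and -0.03). The falls in the AGO2 knockout in the authors' deposited table were RNF24 (-0.67), the mTOR inhibitor DDIT4 (-0.95), ANKZF1 (-0.39) and RAB20 (-0.50). In the ANKRD52 knockout the secreted hormone gene STC2 (-0.94, adjusted p = 8.92e-11), ANKZF1 (-0.47) and the MAX partner MXI1 (-0.55) fell and the adenylate kinase AK4 (0.59) rose in the authors' deposited table. The smallest p-values in the double knockout belonged to ZNF395 (-1.07), the EGF receptor inhibitor ERRFI1 (-2.58), TGFA (1.46) and RNF24 (0.76) in the authors' deposited table.

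Of 31 measured glycolytic isoforms and genes of neighbouring steps 2 rose in the AGO2 knockout, 1 rose and 2 fell in the ANKRD52 knockout, and 6 rose and 12 fell in the double knockout (19.4% and 38.7%; medians 0.06, -0.01 and -0.22). C12orf5, the p53 target also called TIGAR that lowers fructose 2,6-bisphosphate, rose in the AGO2 knockout (0.66, SE 0.14, adjusted p = 0.000521) and the double knockout (1.41, SE 0.14, adjusted p = 3.20e-21) in the authors' deposited tables. BPGM rose in the AGO2 knockout (0.44, adjusted p = 0.0360), and PGM2L1 rose (0.77) while TKT (-0.25) and GPD1L (-0.28) fell in the ANKRD52 knockout, in the authors' deposited tables. In the double knockout the lactate transporter SLC16A1 rose (0.89, adjusted p = 2.94e-14), and the mitochondrial pyruvate carrier subunit MPC1 (-1.0, 2.80e-11) fell in the authors' deposited table.

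Facts of the series that touch these values are few. The targeted genes in the authors' deposited tables had log2 fold changes of -1.07 for AGO2 in its knockout (adjusted p = 0.0477), 0.03 for ANKRD52 in the ANKRD52 knockout (adjusted p = 0.915), and -0.65 for ANKRD52 and -2.42 for CSNK1A1 in the double knockout, so the level of ANKRD52 RNA did not tell the ANKRD52 knockout from the parental line. ANKRD52 also rose in the AGO2 knockout (0.85, adjusted p = 8.78e-07 in the authors' deposited table). All 6 epithelial markers were measured, and their median log2 fold change was -0.08 in the AGO2 knockout (0 called), -0.52 in the ANKRD52 knockout (CLDN7, EPCAM and CDH1 fell) and 1.35 in the double knockout (KRT19, KRT8, KRT18 and CDH1 rose). Of 5 blood, 3 endothelial and 3 fibroblast markers 2, 1 and 1 were in the tables, and PTPRC, PECAM1 and DCN were not. In the double knockout LYZ (6.77) and VWF (2.25) rose, CD68 (-1.96) fell and COL1A1 (0.24) was not called in the authors' deposited table. The called ones were low in level. The implied CPM in the parental line and the double knockout was 0.0788 and 8.63 for LYZ, 0.53 and 2.53 for VWF, and 4.18 and 1.07 for CD68. The part of these shifts in the members' values was not tested, and in bulk RNA fewer cells that express a gene and less RNA per cell cannot be told apart.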

How the data were processed

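RNA came from HCT116 cells, with polyadenylated RNA made into TruSeq Stranded mRNA libraries and read on a NextSeq 500, per the labels' protocols. The build hg19, edgeR 3.8.6, featureCounts 1.4.6 and TopHat2 2.0.12 are listed in the submitters' processing notes without roles, and the annotation and strand setting of counting are not given in the sources used here. The authors deposited 3 tables of 12756 genes with log2 fold changes, the mean log2 CPM, likelihood ratio scores, p-values and their adjusted values. The p-values equalled chi-square tails of the score. Counts of single libraries are not used here, so depth is unknown, and the count tests planned gave way to tests on fold changes.

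The members and lists were chosen with earlier results of these data known. With pandas 2.3.3 and scipy 1.17.1, the approximate SE was the size of the log2 fold change divided by the root of the score. Differences between knockouts took the mean of both squared SEs, since the parental libraries are shared, with a two-sided normal test adjusted by Benjamini-Hochberg over the 11877 genes whose mean log2 CPM reached 1; these scripts were tested on simulated data. Implied group CPM assumed 4 equal groups. Exon lengths came from GENCODE 29 and promoters from RefSeq (GRCh38.p14), whose table matched 12499 genes by name or synonym. Members called anywhere were named with values, implied levels were given for the 5 largest called changes and the HIF subunits and sensors, and up to 4 genes of smallest p were named for each other list and comparison. One gene that this rule names is not reported here. The floor of 5 on mean log2 CPM was chosen after seeing the data. Alternatives were other thresholds, expression floors, centring, reference distributions and error formulas.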

Additional observations from a re-analysis of the deposited data

How the results depend on the processing

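No called member turned its direction under any setting run. With an F distribution (1 and 8 degrees of freedom) in place of chi-square, called members numbered 0 higher and 0 lower in the AGO2 knockout and 0 higher and 0 lower in the ANKRD52 knockout, where the lowest adjusted p-values were 0.259 and 0.0746; over all genes 0, 3 and 3784 passed in the AGO2, ANKRD52 and double knockout. At an adjusted p under 0.01, 0 rose and 2 fell in the AGO2 knockout and 3 rose in the ANKRD52 knockout. With an absolute log2 fold change of at least 0.5, 0 rose in the AGO2 knockout and 3 in the ANKRD52 knockout. The mean over members in the double knockout was -0.03, against a median of -0.21. Members lower in the double than in the ANKRD52 knockout, 8 as reported, numbered 3 with summed squared errors, 4 with a t distribution and 4 at 0.01. Between the ANKRD52 and AGO2 knockouts 1 was higher and 0 lower with summed squared errors, 0 and 0 with a t distribution, and 3 lower at 0.01. Members lower in the double than in the AGO2 knockout numbered 6 with summed squared errors. The other counts stayed within 1.5 times. The F and t distributions, the summed errors, the threshold of 0.01 and the minimum fold change are stricter by construction. The mean in the double knockout takes in SLC2A3 at 6.29, the largest log2 fold change among the members, and a mean without it was not computed.

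No paired analysis was possible because the tables hold no values of single libraries. For the same reason TMM against DESeq2 size factors, DESeq2, and leaving out each replicate were not run, and what 1 library contributes to a value was not tested. Depth is unknown, so no counting interval was given. CITED4 and ANKRD37 were low in every group, and SLC2A3 in the AGO2 knockout and the parental line. Their SEs in the double knockout were 0.22, 0.45 and 0.59, against a median of 0.136 over all genes. The SE of CITED4 was wider than that of only 29.6% of the 500 genes nearest in expression.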
